A study of Mus musculus with 34 samples.

Results

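PolyA selection of mouse liver RNA was compared with no selection across genes, to measure how capture by the poly(A) tail changes which RNAs a library reports. The comparison used 12 of the 34 libraries of the series, chosen by the library labels: 9 polyA-selected and 3 unselected liver libraries of the same batch. Per the labels, all 12 were made from liver RNA of a wild-type C57BL/6J mouse aged 12 weeks, given as male in one field and as female in another. Ddx3y, a Y-linked gene, had 202 to 219 counts in the unselected libraries and 1025 to 2045 in the polyA libraries, while Xist had at most 4. The 9 polyA libraries, from 200 ng of RNA and the TruSeq Stranded mRNA kit, covered every combination of 3 PCR ramp rates (Slow, Medium, Fast, the speed of temperature changes in the thermocycler) and 3 fragment lengths (Long, Medium, Short). The 3 unselected libraries, from 20 ng and the TruSeq Stranded Total RNA kit, had a Slow ramp and Medium fragments. Selection, kit and input amount therefore change together and cannot be told apart. The libraries are preparations of RNA from 1 animal, so p-values measure only the spread between preparations. Among the polyA libraries that spread includes ramp rate and fragment length. The gene tests fitted both as covariates, and the tests of shares of counts did not.

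Most messenger RNAs carry a long run of adenosines at the 3' end, added after cleavage downstream of a poly(A) signal such as AATAAA or ATTAAA. Oligo(dT) beads bind this tail. Ribosomal RNA, small nuclear and nucleolar RNAs, RNA polymerase III products and the messages of replication-dependent histones end in other ways, the last in a conserved stem-loop. Some long noncoding RNAs that stay in the nucleus have genome-encoded or short tails. Because the beads bind only the 3' end, a long RNA that has been broken keeps only its 3' piece.

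The deposited counts summed to 19996856 to 21695696 in the unselected libraries and 23453453 to 41396063 in the polyA libraries. Genes of the rRNA type held 72.9% ± 0.519 (SD, n = 3) of the unselected counts and 0.209% ± 0.0366 (SD, n = 9) of the polyA counts. Outside nuclear and mitochondrial rRNA genes the unselected libraries kept only 4509262 to 4788745 counts, so low genes were measured less precisely there. Within those counts, 35.6% ± 0.290 lay in 1 gene, Lars2, against 0.0172% ± 0.00367 after selection. Lars2 encodes the mitochondrial leucyl-tRNA synthetase, and its difference of -11.39 on the log2 scale was of the size seen for rRNA. Shares of counts below are therefore also given without Lars2. The tissue label was checked with marker genes: the summed level of 9 hepatocyte markers was 47964 to 48950 CPM (counts scaled to the effective library size, per 1e6) in unselected and 61782 to 64970 in polyA libraries, whereas 9 heart markers summed to at most 0.619, with 4 of them at 0 in every unselected library.

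Of 14083 genes tested with edgeR, 7534 (53.5%) differed at an adjusted p under 0.05, 3968 (28.2%) higher and 3566 (25.3%) lower after polyA selection. These shares are the background for every count of genes below. Differences are log2 fold changes, polyA minus unselected at Slow ramp and Medium fragments, each with its standard error (SE). Levels are CPM on the TMM scale, a scaling that assumes that most genes are unchanged. The direction is relative to that scale, on which the median of all genes was 0.06. With totals outside rRNA in place of TMM that median was 0.57, with totals outside rRNA and Lars2 -0.06, and with deposited totals 2.72. When a change of at least 2-fold was required, 631 genes remained, 74 higher and 557 lower.

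Annotated RNA ends of several classes are shown here, because the beads bind the tail at the 3' end. Sequences are of the longest annotated transcript, in GRCm38 coordinates, with capitals for the stem-loop, the poly(A) signal, the terminal run of T or an A-rich tract. Alb (albumin, chr5:90476573-90476602, plus strand) ends as a usual mRNA does. Rn7sk (chr9:78175303-78175362, minus strand) is a polymerase III product that ends in T. Neat1 (chr19:5824708-5824767, minus strand) ends in an A-rich tract that is part of the genome. Malat1 (chr19:5795957-5796016, minus strand) has the same tract 302 bases before its annotated end. That tract, searched on the transcript strand, occurred in the last 350 bases of 0.392% of the tested genes' longest transcripts.
Alb end: ctgcaattAATAAAaaatggaaagaatcta
Rn7sk end: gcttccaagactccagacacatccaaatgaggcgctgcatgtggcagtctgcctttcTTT
Neat1 end: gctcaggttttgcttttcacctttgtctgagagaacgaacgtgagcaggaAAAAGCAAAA
Malat1 tract: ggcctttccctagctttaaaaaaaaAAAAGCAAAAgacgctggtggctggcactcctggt

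The replication-dependent histone messages are shown for the same reason. Hist1h1e (chr13:23621775-23621804, minus strand) and Hist1h4d (chr13:23581943-23581972, plus strand) have the stem-loop and no poly(A) signal in their last 40 bases. Hist1h1c has the stem-loop (chr13:23739505-23739534, plus strand) 856 bases before its annotated end, and a signal near that end (chr13:23740336-23740365). Hist2h2be (chr3:96223711-96223738, plus strand) has a signal and no stem-loop. Hist2h4 has a signal near its annotated end as well (chr3:96261691-96261720, minus strand).
Hist1h1e stem-loop: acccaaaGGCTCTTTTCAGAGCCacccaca
Hist1h4d stem-loop: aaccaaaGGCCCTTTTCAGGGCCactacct
Hist1h1c stem-loop: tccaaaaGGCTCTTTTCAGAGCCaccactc
Hist1h1c signal: gcttctAATAAAaagcgtttagttttcatt
Hist2h2be signal: attattAATAAAgttaccgattagtttc
Hist2h4 signal: acataaAATAAAatcttaaaaacaacaaaa

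The structured RNAs, which are made without a tail, were far lower after selection. All 6 tested entries of the structured RNA list fell (10 genes listed), with a median log2 fold change of -11.82 against 0.06 for all genes. Rn7sk, the 7SK RNA that holds back the elongation factor P-TEFb, had 3885, 3889 and 3815 CPM in the unselected libraries and 0.619, 0.797 and 1.67 as the lowest, median and highest polyA value, a log2 fold change of -12.41 ± 0.08 (SE, edgeR adjusted p = 8.1e-23). Rn7s1, RNA of the signal recognition particle that brings nascent secretory proteins to the endoplasmic reticulum, fell from 24983 ± 641 CPM (SD, n = 3) to 13.5 ± 4.42 (SD, n = 9). Every polyA library lay far below every unselected library for both genes.

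Rpph1, the RNA of ribonuclease P that trims tRNA precursors, fell from 738 ± 31.0 to 0.209 ± 0.0941 CPM. Rmrp, the RNA of the related ribonuclease MRP, has 2 overlapping entries that cannot be told apart by reads. Their sum was 302 to 316 CPM in unselected libraries and 0.0498 to 0.257 after selection. Rn7s6, a second signal recognition particle RNA, was the lowest member, at 5.28 to 8.48 CPM unselected, and fell by 11.20 ± 0.69 on the log2 scale. The list took 3.34% ± 0.100 of unselected counts outside rRNA and 0.00235% ± 0.000728 of polyA counts (exact permutation over libraries, two-sided p = 0.00455, the smallest that 220 assignments allow, adjusted p = 0.00568 over 15 classes). Without Lars2 in the total the unselected share was 5.19% (adjusted p = 0.00568).

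Small nuclear RNAs, which build the spliceosome, and small nucleolar and Cajal body RNAs, which guide modification of other RNAs, fell as well. Only 10 of 1308 snRNA entries and 29 of 1414 snoRNA and scaRNA entries passed the low-count filter. A gene that passes only through the unselected libraries had to be lower after selection, so their counts and medians, like those of the structured RNA and histone lists, only describe the genes that passed. All 10 snRNA genes were called lower, with a median of -9.74 and a range of -11.62 to -7.10. All 29 snoRNA and scaRNA genes were called lower, with a median of -9.09, or -8.77 when the 2 genes at 0 in every polyA library are put at the lower bound that 3 counts per library give. Gm24924, a snRNA gene entry, went from 27.1, 30.4 and 36.0 CPM to a polyA range of 0 to 0.0855. Scarna10 had 14.1 to 15.1 CPM unselected and 1 count in all 9 polyA libraries, a ratio of 6669 with a counting interval of 1197 to 263407. Scarna10 overlaps Ncapd2 and Gm28967 on the same strand, and summed over the 3 entries the log2 ratio was -2.51. Gm22988, a snoRNA entry inside Eif4a1, had 14.6 to 17.0 CPM unselected and at most 0.148 after selection, and the sum with Eif4a1 gave -0.09. The snRNA share fell from 0.0486% to 0.000155% of counts outside rRNA and the snoRNA and scaRNA share from 0.0367% to 0.000247% (exact permutation, adjusted p = 0.00568 for each). Without Lars2 the unselected shares were 0.0755% and 0.0570%. The 2 mitochondrial rRNAs fell within the same range, with log2 fold changes of -8.80 ± 0.05 for mt-Rnr1 and -8.71 ± 0.05 for mt-Rnr2.

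**Figure D1:**
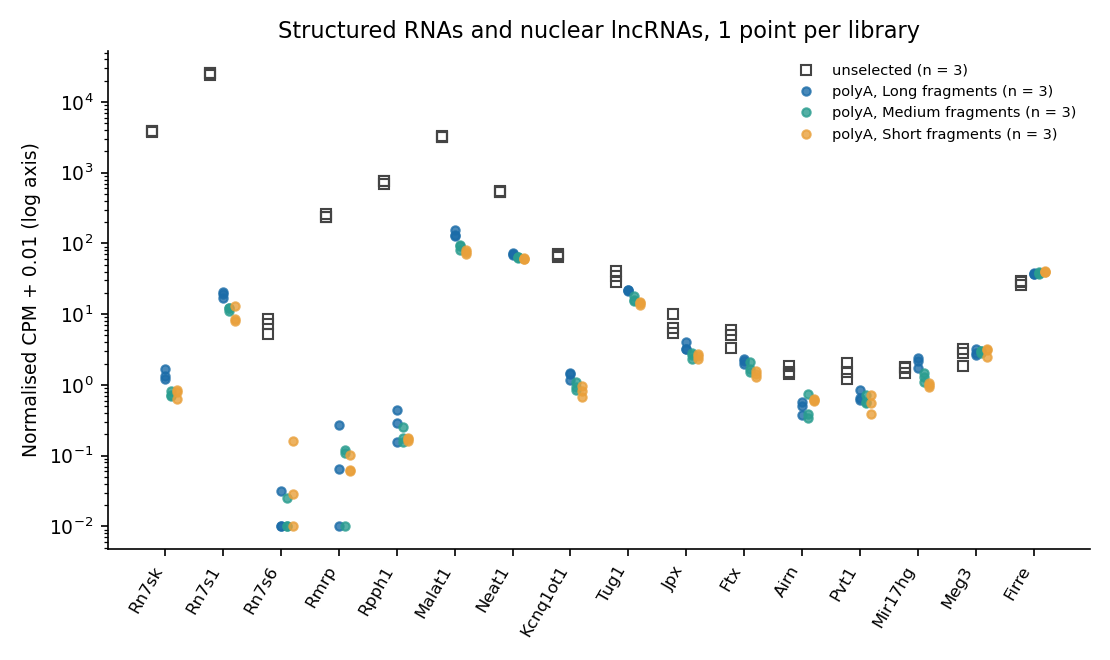
Normalised CPM plus 0.01 on a log axis for structured RNAs and nuclear long noncoding RNAs, 1 point per library (squares, 3 unselected; circles, 9 polyA by fragment length; Rmrp is its higher entry). The structured RNAs lie far lower in every polyA library, Malat1 averages 3259 CPM unselected and 101 CPM after selection, and Firre at the right is higher in all 9 polyA libraries.

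Long noncoding RNAs known to stay mostly in the nucleus fell over a wide range. Of 11 tested members, 8 fell, 1 rose and 2 did not pass the test, with a median of -1.34. Kcnq1ot1, the antisense RNA that silences an imprinted cluster, fell most: it had 69.7, 65.2 and 70.5 CPM unselected against 0.662 to 1.46 after selection, a log2 fold change of -6.14 ± 0.13 (edgeR adjusted p = 4.9e-15). Malat1, an abundant RNA of nuclear speckles, had 3213, 3246 and 3320 CPM unselected and 71.1, 91.7 and 157 as the lowest, median and highest polyA value, a change of -5.08 ± 0.05 (adjusted p = 3.9e-19). Neat1, the scaffold of paraspeckles, went from 544 ± 7.47 to 65.6 ± 4.79 CPM, a change of -3.13 ± 0.04. For these 3 RNAs no polyA library came near an unselected one.

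The other members that fell did so by less. Tug1 fell by 1.00 ± 0.10, and the X-inactivation centre RNAs Jpx and Ftx fell by 1.47 ± 0.22 and 1.34 ± 0.24 on the log2 scale. Airn, the antisense RNA of the imprinted Igf2r locus, fell by 1.47 ± 0.39 and Pvt1, the neighbour of Myc, by 1.23 ± 0.37, both from under 2.1 CPM. Without unselected replicate 1 the call of Pvt1 was lost (edgeR adjusted p = 0.0888). Firre, a nuclear RNA that contacts several chromosomes, rose from 27.9 ± 2.17 to 38.4 ± 1.47 CPM, by 0.42 ± 0.06. Meg3 (0.18 ± 0.25, adjusted p = 0.58) and Mir17hg (-0.25 ± 0.29, adjusted p = 0.53) did not pass the test. The list's share of counts outside rRNA was 0.442% ± 0.00470 unselected and 0.0371% ± 0.00513 after selection (exact permutation, adjusted p = 0.00568), and 0.686% unselected without Lars2. Malat1 held most of the list's unselected counts, with 17420 of the 4788745 counts outside rRNA in unselected replicate 1. The share therefore mainly describes Malat1 and not the other members.

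Across all lncRNA gene types 79 of 811 tested genes rose and 160 fell. Of 326 entries annotated as sense intronic, which lie within introns of other genes, 41 passed the low-count filter. Some passed only through the unselected libraries, so the values of this class too are a description. Of the 41, 28 were called lower and 1 higher, with a median of -1.64. When libraries were thinned to equal totals outside rRNA, Lars2 included, 7 were still tested, with a median of -1.04. Among those called lower, AC113485.1 went from 2.21 to 3.20 CPM to a median of 0, and Gm43259 had 2 counts in all polyA libraries, a ratio of 520 with a counting interval of 144 to 4297. Of 299 lincRNA genes 61 fell and 29 rose, and of 232 antisense genes 26 fell and 19 rose. Lncpint fell by 7.14 ± 0.28, from 29.5 to 0.209 CPM. AC157910.3, which overlaps the liver microRNA gene Mir122, fell by 3.88 ± 0.05, from 199, 201 and 213 CPM to 12.4 to 16.3. The unnamed transcripts 4632427E13Rik and Gm43189 fell, with -4.36 ± 0.18 and -4.205 ± 0.154.

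Among lncRNA genes with at least 10 counts in each library and no overlap of groups, the 5 largest rises were those of Zfas1 (1.09 ± 0.17), 1810019D21Rik (1.03 ± 0.10), Snhg8 (1.02 ± 0.21), 2410006H16Rik (1.01 ± 0.28) and 1110038B12Rik (0.99 ± 0.18), and 3 of them contain snoRNA genes on the same strand. Among host transcripts of snoRNAs, spliced RNAs whose introns release the snoRNAs, 6 of 15 tested rose, none fell, and the median was 0.53. Gas5, a host of several snoRNAs, rose from 22.3 ± 2.58 to 43.1 ± 10.8 CPM. The share of all lncRNA types fell from 0.758% ± 0.00898 to 0.428% ± 0.0245 of counts outside rRNA (exact permutation, adjusted p = 0.00568). Without Lars2 the unselected share was 1.18%, and when counts were divided by transcript length the difference did not pass the test (adjusted p = 0.0974). Outside the nuclear list the direction depended on Lars2. There, lncRNA types took 0.391% ± 0.0195 of polyA and 0.316% ± 0.00542 of unselected counts outside rRNA. Without Lars2 in the total the shares were 0.391% and 0.490%. These values were added later and not tested.

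Replication-dependent histone messages differed widely among themselves. Of 18 genes tested (70 in the annotation), 13 fell, 1 rose and 4 did not pass the test, with a median of -4.27. When libraries were thinned to equal totals outside rRNA, Lars2 included, 9 were tested and their median was -1.47. Hist1h1e, a linker histone, had 23.2, 24.8 and 25.8 CPM unselected and 0, 0.0708 and 0.174 as the lowest, median and highest polyA value, a log2 fold change of -8.97 ± 0.40 (edgeR adjusted p = 3.2e-11). Hist1h4d, an H4 gene, fell from 11.2 ± 2.01 to 0.0293 ± 0.0196 CPM. Hist1h3e, Hist1h4m, Hist1h4c, Hist1h4b, Hist1h4h and Hist1h1d had log2 fold changes of -8.79 to -6.07. Hist2h4 had -4.88, Hist1h2bg -3.65 and Hist1h2be, which overlaps Hist1h1e, -3.31. The sum of Hist1h1e and Hist1h2be gave -6.68 on the log2 scale. The groups did not overlap for any of these 11 genes, where 21.4% of all genes tested lay below without overlap and 23% above. These 11 are the largest falls of the list, and some passed the filter only through the unselected libraries. The lack of overlap therefore only describes them.

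The other 7 members differed less, and 2 of them were called lower. Hist1h2bc rose from 33.8, 33.8 and 31.5 CPM to 41.9 to 58.6, by 0.50 ± 0.08 (adjusted p = 5.4e-05), and was the highest histone gene of the list in both groups. Hist1h1c went from 15.9 ± 1.28 to 13.4 ± 1.20 CPM (-0.25 ± 0.10, adjusted p = 0.054). Hist3h2a (-0.76 ± 0.32), Hist1h4i (-0.18 ± 0.48) and Hist2h2be (0.02 ± 0.42) also did not pass the test. The near-identical Hist2h2aa1 and Hist2h2aa2 fell by 0.72 and 1.11. Their sum was 11.3 to 15.9 CPM unselected and 3.80 to 15.9 after selection, so the groups overlapped, and Hist2h2aa2 was at 0 in the 3 polyA libraries with Long fragments. Without unselected replicate 2 the call of Hist2h2aa1 was lost (edgeR adjusted p = 0.125), and with Long libraries alone its sign turned.

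The annotated ends were set beside these values. The histone stem-loop was found, on the transcript strand, in 16 of the 18 longest transcripts and in 0.196% of all tested coding genes. It was missing in Hist1h2bc and Hist2h2be, neither of which fell. AATAAA or ATTAAA stood in the last 40 bases of 7 of the 18 and of 72.2% of all tested coding genes. Of those 7, 3 fell (Hist1h2be, Hist1h4h and Hist2h4), while 10 of the other 11 fell. The median was -0.76 with a signal and -7.03 without. Over all tested coding genes the signal was not rarer among those that fell: 75.1% of genes called lower and 70.4% of genes called higher carried it. A match is a description of the annotated transcript and shows no use of the site. The histone share fell from 0.0201% ± 0.00153 to 0.0121% ± 0.00149 of counts outside rRNA (exact permutation, adjusted p = 0.00568), and was 0.0312% unselected without Lars2. Among replacement histones, which are made outside S phase from ordinary polyadenylated messages, 6 of 10 rose, none fell, and the median was 0.39. H3f3a rose from 43.9 ± 1.00 to 78.3 ± 6.68 CPM and H2afv from 10.9 ± 1.53 to 16.9 ± 0.944.

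**Figure D2:**
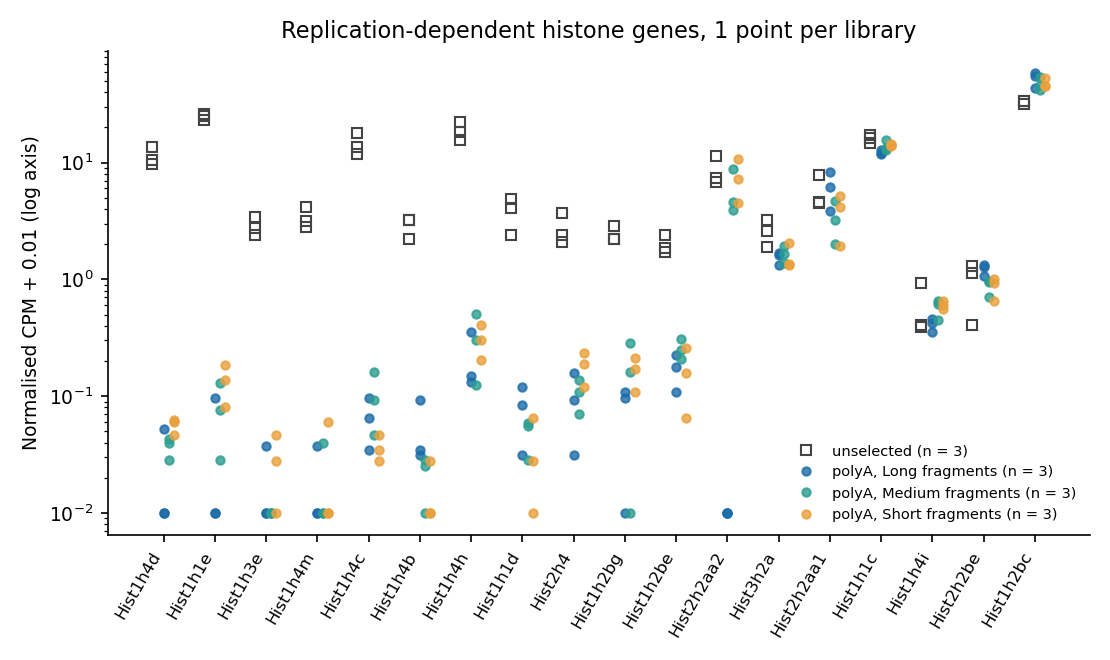
Normalised CPM plus 0.01 on a log axis for the 18 tested replication-dependent histone genes, ordered by log2 fold change, 1 point per library (squares, 3 unselected; circles, 9 polyA by fragment length). The 11 genes at the left have no polyA library near an unselected one, and Hist1h2bc at the right is higher in all 9 polyA libraries.

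Mitochondrial mRNAs carry short tails added by a mitochondrial polymerase, except mt-Nd6, the only one read from the light strand. mt-Nd6 fell most, from 125, 131 and 139 CPM to 2.12, 3.49 and 17.6 as the lowest, median and highest polyA value, a log2 fold change of -4.73 ± 0.08 (edgeR adjusted p = 6.3e-17). mt-Nd5, another complex I subunit, fell by 1.06 ± 0.04 and mt-Nd4l by 0.92 ± 0.04, with no overlap between groups. mt-Nd4l overlaps mt-Nd4, and their sum gave -0.40 on the log2 scale, with 3498 to 3790 CPM unselected and 2061 to 3783 after selection, which overlap. mt-Co3 fell by 0.50 ± 0.11, mt-Nd4 by 0.41 ± 0.05, mt-Nd2 by 0.32 ± 0.06, mt-Co1 by 0.23 ± 0.03, mt-Cytb by 0.20 ± 0.03 and mt-Nd1 by 0.19 ± 0.05. mt-Atp6 rose by 1.18 ± 0.22, and mt-Co2 (0.40 ± 0.28, called without unselected replicate 1 with edgeR adjusted p = 0.0339), mt-Atp8 (0.26 ± 0.18) and mt-Nd3 (-0.07 ± 0.32) did not pass the test. In all, 9 of 13 fell and 1 rose, but mt-Atp6 overlaps mt-Atp8 and mt-Co3, and summed over those 3 genes the ratio was -0.17 on the log2 scale.

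These values moved with fragment length among the polyA libraries. Against Medium fragments, 11 of the 13 mRNAs were higher with Long fragments and 1, mt-Co3, was lower, with a median difference of 0.66, whereas the median of all genes was -0.01. mt-Co1, a subunit of cytochrome c oxidase and the highest of them, averaged 13082 CPM with Long, 8305 with Medium and 7506 with Short fragments, against 10271 ± 277 unselected. With Long libraries alone, mt-Co1, mt-Cytb, mt-Nd1, mt-Nd2 and mt-Nd4 had the other sign, with 0.36, 0.25, 0.46, 0.34 and 0.08 on the log2 scale. Only mt-Nd5, mt-Nd4l, mt-Co3 and mt-Nd6 lay below the unselected range in all 9 polyA libraries. As a class these mRNAs took 3.67% ± 0.906 of polyA and 2.98% ± 0.0582 of unselected counts outside rRNA (exact permutation, adjusted p = 0.245). That test does not account for fragment length. The polyA share was 4.70% to 4.94% with Long, 3.11% to 3.51% with Medium and 2.77% to 3.12% with Short fragments. Without Lars2 in the total the unselected share was 4.62% and the direction turned.

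**Figure D3:**
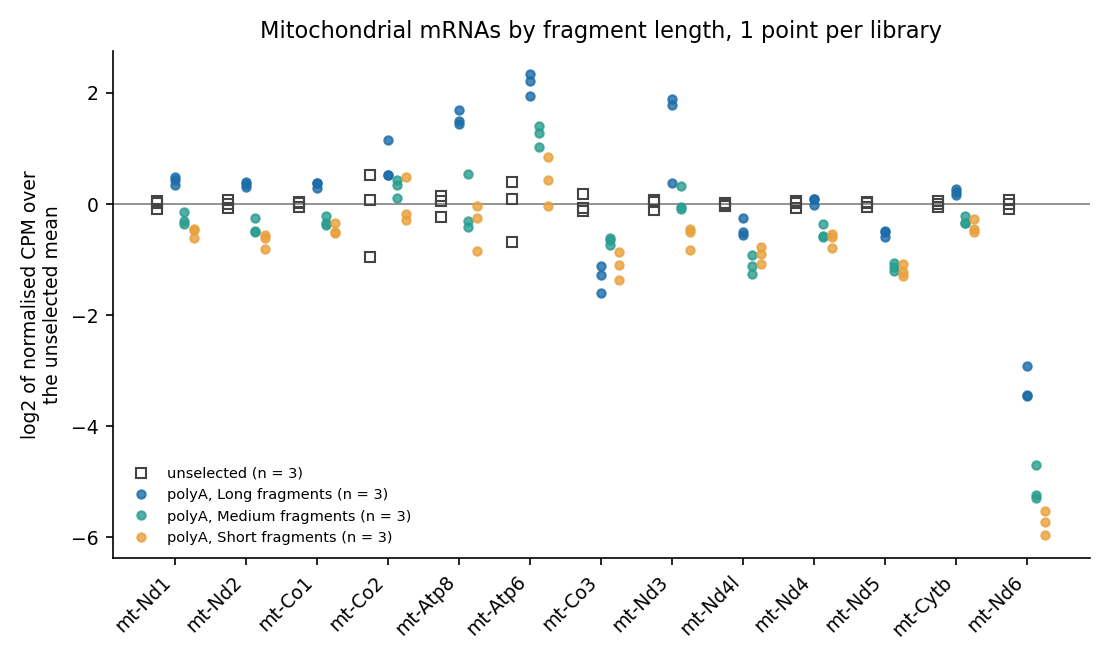
log2 of each library's normalised CPM over the unselected mean for the 13 mitochondrial mRNAs in genome order, mt-Nd6 last (squares, 3 unselected; circles, 9 polyA by fragment length). Libraries with Long fragments sit above the others for most genes, and mt-Nd6 is the lowest, with at most 17.6 CPM in any polyA library against 132 unselected.

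Messages described as retained in the nucleus of liver cells mostly rose. Of 5 tested, 4 rose, among them Gcgr, the glucagon receptor, by 0.57 ± 0.06, Nlrp6, an inflammasome sensor, by 0.51 ± 0.05 and Mlxipl, which encodes the glucose-responsive factor ChREBP, by 0.40 ± 0.05. Slc7a2, a cationic amino acid transporter with a longest transcript of 7910 bases, fell by 0.51 ± 0.03, from 904, 943 and 949 CPM to 615 to 792. Genes known for detained introns split: 9 of 23 rose and 5 fell, with a median of 0.13. Srsf5 and Ccnl2, both regulators of splicing, rose by 0.75 ± 0.06 and 0.66 ± 0.06. Nktr fell by 0.44 ± 0.05. Tra2a, at -0.42 ± 0.12, lost its call without unselected replicate 1 or 2 (adjusted p = 0.0613 and 0.0708) and had the other sign with Long libraries alone.

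The short-lived messages of immediate early genes were mostly not called, unlike those of clock genes. Among immediate early genes, which cells switch on within minutes of a stimulus, 17 of 25 did not pass the test, 3 rose and 5 fell, with a median of -0.08. Against the median of coding genes in the same length range, 20 of the 25 lay below, with a median of -0.24, though level was not matched. Nr4a1 rose by 0.56 ± 0.17 and Gadd45g by 0.59 ± 0.21, while Klf4 fell by 1.14 ± 0.32 and Ier5 by 0.66 ± 0.27, all under 13 CPM. The calls of Gadd45g, Klf4 and Ier5 were lost when single unselected libraries were left out (adjusted p up to 0.113, 0.0527 and 0.161). Of 18 clock genes 6 rose (33.3%) and 5 fell (27.8%), near the shares of all genes tested, with a median of -0.12. Dbp, a clock output factor, rose by 0.51 ± 0.07 and Ciart by 0.61 ± 0.18 (adjusted p = 0.0835 without unselected replicate 2). Clock and Rora, with longest transcripts of 9744 and 10878 bases, fell by 1.04 ± 0.07 and 1.25 ± 0.05.

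The difference followed transcript length across the protein-coding genes. The longest annotated transcript was used as the length. The median log2 fold change was 0.78 for genes of 500 to 1000 bases, 0.52 for 1000 to 2000, 0.18 for 2000 to 4000, -0.32 for 4000 to 8000 and -0.94 above 8000. Of 479 genes of 500 to 1000 bases, 323 rose and 14 fell. Of 722 genes over 8000 bases, 11 rose and 86.6% fell. The smallest group, 35 genes under 500 bases, had a median of 0.62 with 14 higher and 5 lower. The medians are a description across genes, with no test, since genes are not replicates.

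The step was present in every polyA library. Taken per library against the unselected mean, the median of the 500 to 1000 base genes exceeded that of the genes over 8000 bases by 1.58 to 1.79 on the log2 scale, with means of 1.64 ± 0.0576 for Long, 1.72 ± 0.0296 for Medium and 1.75 ± 0.0396 for Short fragments (SD, n = 3 each). The same difference was 0.010, 0.0016 and -0.015 in the 3 unselected libraries. These 3 values are small by construction, since each library was set against their own mean, and show only their spread. When genes were split into 3 equal groups by their mean level over all 12 libraries, the median of genes over 8000 bases was -1.25, -0.92 and -0.89 from the lowest to the highest group, and that of 500 to 1000 base genes was 0.68, 0.79 and 0.82. Split into 4 equal groups by GC content of the transcript, the same medians were -1.07, -0.90, -0.88 and -0.70, and 0.65, 0.74, 0.82 and 0.77.

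Shares of counts carried the test over libraries. Genes of 500 to 1000 bases took 6.29% ± 0.624 of polyA and 2.68% ± 0.00781 of unselected counts outside rRNA, and genes of 1000 to 2000 bases 28.1% ± 0.225 and 14.0% ± 0.0547. Genes over 8000 bases took 3.38% ± 0.0740 and 4.62% ± 0.0333 (exact permutation, adjusted p = 0.00568 for each of these 3). Without Lars2 in the total the unselected shares of the same 3 were 4.16%, 21.7% and 7.17%, with the same directions and adjusted p, so that the difference for 1000 to 2000 bases went from 14.1 to 6.35 percentage points. For the lengths between them the sign depended on Lars2. The 2000 to 4000 base genes, with Lars2 among them, took 40.6% after selection and 58.4% without, and 40.6% and 35.4% once Lars2 was left out. For 4000 to 8000 bases the shares were 19.3% and 15.0%, and 19.3% and 23.2% without Lars2. All of these also had an adjusted p of 0.00568, in opposite directions.

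**Figure D4:**
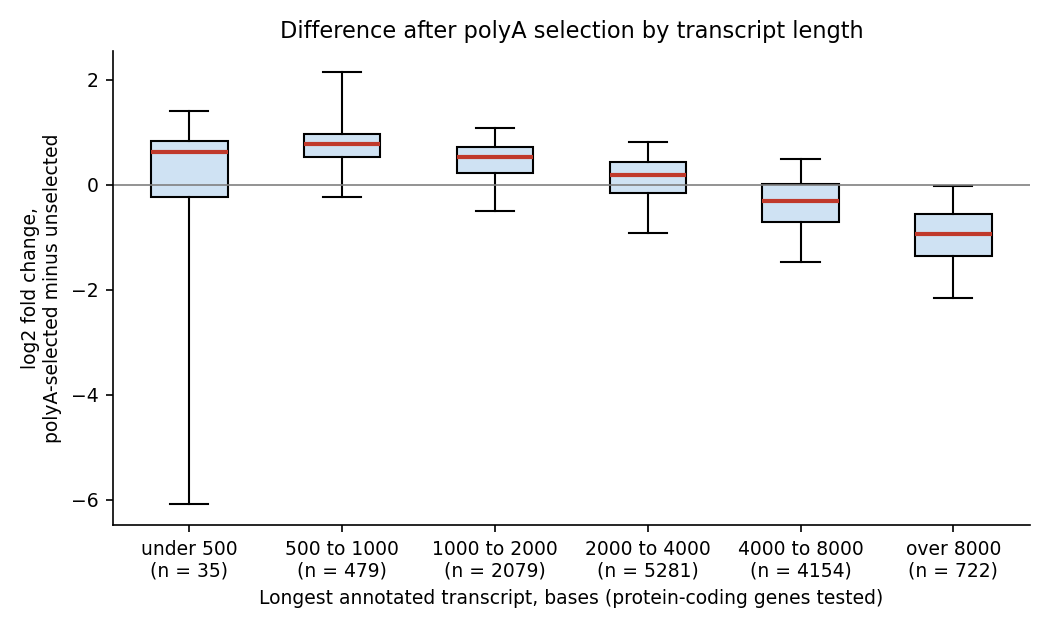
log2 fold change, polyA-selected minus unselected, of protein-coding genes by longest annotated transcript (red line, median; box, middle 50% of genes; whiskers, 5th to 95th percentile; n genes under each box). The median falls from 0.78 at 500 to 1000 bases to -0.94 above 8000 bases.

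Very long messages mostly fell. Of 35 tested members of a list chosen for length, 34 fell and none rose, with a median of -1.19. Ahnak, a giant scaffold protein with a transcript of 18100 bases, had 59.9, 58.6 and 52.4 CPM unselected and 9.86 to 11.4 after selection, a log2 fold change of -2.47 ± 0.07 (edgeR adjusted p = 1.5e-13). Birc6, an inhibitor of apoptosis of 15768 bases, fell by 1.88 ± 0.05. Apob, the structural protein of lipoproteins made in liver, with 13934 bases, fell from 8871 ± 270 to 2831 ± 416 CPM, and its polyA level was 3362 with Long, 2641 with Medium and 2489 with Short fragments. Among the 11 coding genes over 8000 bases that rose, 4 chosen after their values were seen were Suds3 (0.64 ± 0.06), Glo1 (0.41 ± 0.04), Ncl (0.31 ± 0.05) and Mprip (0.23 ± 0.05), the last with the other sign in Long libraries alone.

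Most genes of several housekeeping pathways rose. Of 81 cytosolic ribosomal protein genes 75 rose and 1 fell, with a median of 0.78 and a median transcript of 1059 bases. Of 77 nuclear genes of oxidative phosphorylation 72 rose and 1 fell, with a median of 0.69. Uqcrh, a subunit of complex III, went from 55.8 ± 3.22 to 131 ± 22.9 CPM, and Ndufa5, of complex I, from 14.7 ± 3.65 to 32.8 ± 4.47. Of 31 proteasome genes 28 rose, with a median of 0.61, among them Psmb6 (0.95 ± 0.07) and Psmd7 (0.91 ± 0.07). Of 31 translation factor genes 23 rose and 2 fell, with a median of 0.38 and a median transcript of 2856 bases. Eef1b2 and Eef1g, subunits of an elongation factor, rose by 0.91 ± 0.06 and 0.78 ± 0.05, while Eif5 fell by 0.34 ± 0.05 and Eif4g2, of 7995 bases, by 0.14 ± 0.04.

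Most of the few members that went the other way, though not Eif4g2, changed sign with Long libraries alone or when copies were summed. Rpl27 (-0.36 ± 0.09), Psma3 (-0.29 ± 0.10), Cycs (-0.43 ± 0.15) and Eif5 had the other sign with Long libraries alone. Summed with its pseudogene entries, Rpl27 had 37.2 to 42.4 CPM unselected and 70.9 to 82.9 after selection, above all unselected libraries. Rps27 had the largest fitted rise of its list, 6.73 ± 0.73, from 0.184, 2.00 and 1.13 CPM, but summed with Rps27rt and a pseudogene the ratio was 1.01 on the log2 scale. Rpl10 gave 2.52 ± 0.30 alone and 0.77 summed with its 6 pseudogene entries. The calls of Psma3, Cycs and Eif4g2 were also lost without single unselected replicates (adjusted p up to 0.134, 0.326 and 0.07).

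Secreted and metabolic proteins of the hepatocyte mostly rose. Of 36 plasma protein genes 28 rose and 3 fell, with a median of 0.51. Ttr, the carrier of thyroxine and retinol, had 1762, 1770 and 1765 CPM unselected and 3135 to 3536 after selection (0.87 ± 0.02, edgeR adjusted p = 1.9e-14). F5, coagulation factor V with 7430 bases, fell by 0.44 ± 0.03. Of 13 apolipoprotein genes 12 rose, with a median of 0.79, and only Apob fell. Apoc1 rose by 0.95 ± 0.03, Apoc2 by 0.90 ± 0.05 and Apoa1 by 0.87 ± 0.03. Of 23 fatty acid oxidation genes 21 rose, with a median of 0.57, among them Etfb (0.93 ± 0.04) and Bdh1 (0.74 ± 0.04). Ppara, the nuclear receptor that drives this pathway, fell by 0.61 ± 0.04.

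Of 52 cytochrome P450 genes 37 rose and 3 fell, with a median of 0.39. Cyp2a5 and Cyp2d40 rose by 0.79 ± 0.03 and 0.74 ± 0.10, and Cyp2u1, of 4378 bases, fell by 1.46 ± 0.06 and Cyp4b1 by 0.63 ± 0.13. In the urea cycle 7 of 10 rose and 2 fell. Gls2, a glutaminase, rose by 0.56 ± 0.03, whereas Cps1, the first enzyme, fell by 0.33 ± 0.03 and the ornithine carrier Slc25a15 by 0.27 ± 0.04. In cholesterol synthesis 10 of 22 rose and 4 fell, with a median of 0.14. Pmvk and Ebp rose by 0.91 ± 0.08 and 0.69 ± 0.04. Hmgcs1 gave -0.20 ± 0.05 and had the other sign with Long libraries alone.

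Transcription factors of the hepatocyte were divided: 7 of 21 rose and 9 fell, with a median of -0.05. Nr1i3, the xenobiotic sensor CAR, rose by 0.75 ± 0.04 and the oxysterol receptor Nr1h3 by 0.53 ± 0.06. Onecut1 and Onecut2, the latter of 16234 bases, fell by 1.22 ± 0.10 and 1.48 ± 0.05. Major urinary protein genes are near-identical, so single entries are uncertain: 11 of 19 rose and 1 fell, but Mup18 averaged 1225 CPM with Long and 29.2 with Short fragments. With Short libraries alone its sign turned. Mup16 gave 1.58 ± 0.37 and Mup22 -1.52 ± 0.09, and Mup22 averaged 832 CPM with Long and 207 with Short fragments. Over all 22 entries the sum was 4860 to 5193 CPM unselected and 5368 to 12135 after selection, above the unselected range in each polyA library.

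**Figure D5:**
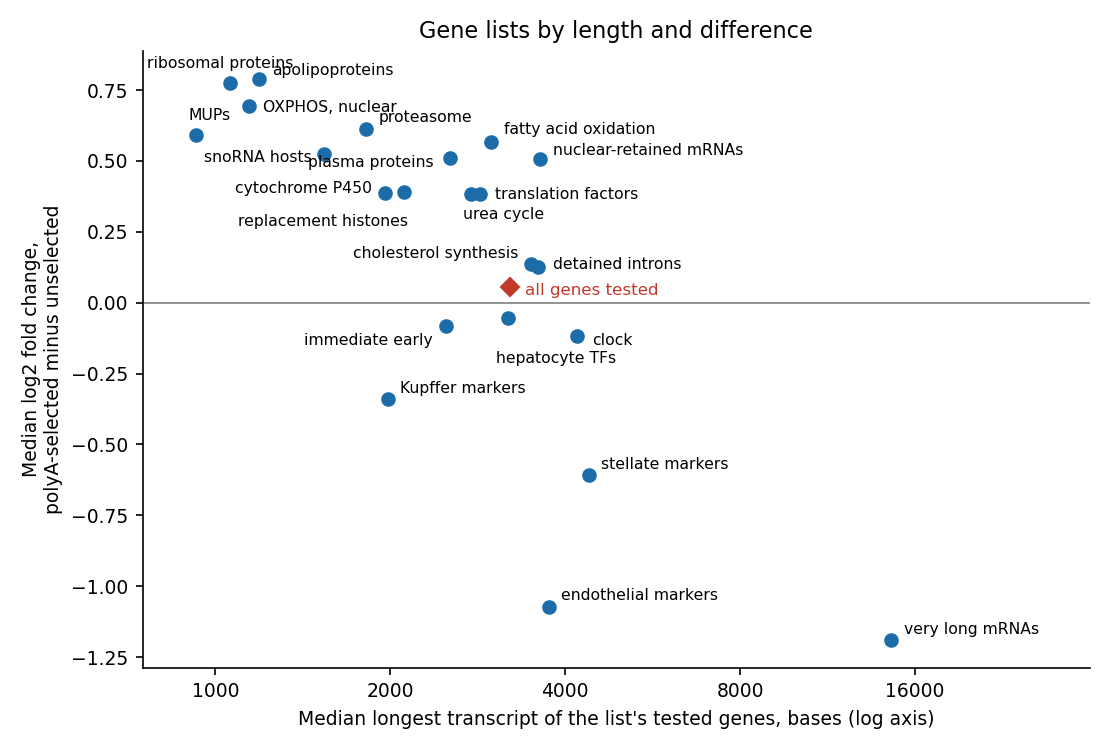
Median log2 fold change of 22 gene lists against the median of the longest transcript of their tested genes (log axis), with all genes tested as a red diamond. Lists of short messages such as ribosomal proteins (1059 bases, 0.78) lie high and very long messages (-1.19) low, while the endothelial (-1.07), stellate and Kupffer markers lie below lists of like length.

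Most markers of endothelial, stellate and Kupffer cells fell. A bulk level does not tell the number of cells of a type from the RNA per cell. Both groups were made from liver RNA of 1 animal, and the cause of the fall was not tested. Of 10 sinusoidal endothelial markers 9 fell and none rose, with a median of -1.07, and their summed level was 289 to 311 CPM unselected and 129 to 140 after selection. Stab2, a scavenger receptor of 8228 bases, fell by 1.76 ± 0.05 and Kdr, the VEGF receptor, by 1.62 ± 0.07. Of 10 stellate cell markers 7 fell, with a median of -0.61, among them Hgf (-2.29 ± 0.13) and Reln (-2.07 ± 0.06). Of 10 Kupffer cell markers 6 fell and 1 rose, with a median of -0.34. Adgre1 fell by 1.42 ± 0.14 and Csf1r by 1.07 ± 0.07, and C1qb, of 1088 bases, rose by 0.38 ± 0.13 (adjusted p = 0.0995 without unselected replicate 2). None of the markers of these 3 lists was at 0 in a whole group.

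The markers were also set beside genes of their own length, without matching for level. From the lowest to the highest of the 3 level groups the median was -0.10, 0.20 and 0.31 for 2000 to 4000 bases. For 4000 to 8000 bases it was -0.55, -0.34 and -0.16. A place above or below the length range therefore cannot be told apart from a difference in level. Relative to the median of coding genes in the same length range, the 10 endothelial markers had a median of -0.88 and all 10 lay below it. The 10 Kupffer markers had -0.57 and all lay below, and of 10 stellate markers 8 lay below. By the same measure 66 of 81 ribosomal protein genes, 31 of 36 plasma protein genes and 19 of 23 fatty acid oxidation genes lay above, with medians of 0.18, 0.19 and 0.34, and 25 of 52 cytochrome P450 genes, with -0.01. For blood cells, 4 of 9 markers rose and 1 fell, while 8 of the 9 lay below their length range, with a median of -0.49. Alas2, of haem synthesis in red cells, rose by 0.53 ± 0.05 and the globin Hbb-bt by 0.53 ± 0.11, and Ptprc, the leukocyte antigen CD45, fell by 1.74 ± 0.15. Of 8 bile duct markers 2 rose and 1 fell, Spp1 by 0.78 ± 0.10, Krt23 by 0.52 ± 0.16 and Sox9 by -1.09 ± 0.17. The call of Krt23 was lost without unselected replicate 2 or 3 (adjusted p up to 0.0847).

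Several of the largest differences of single coding genes shrank when overlapping entries were added up. Single values of entries that share exons are uncertain, and how the counting divided reads between them was not tested. Rdh9, a retinol dehydrogenase with the largest rise among coding genes with at least 10 counts in each library, had 7.01, 5.20 and 6.79 CPM unselected and 46.4 to 53.0 after selection (2.89 ± 0.10, edgeR adjusted p = 1.3e-12), but together with Rdh16f1 the values were 32.2 to 35.2 and 46.7 to 53.0, a log2 ratio of 0.54. Cfb, complement factor B, gave 1.97 ± 0.03 alone and 0.35 together with the read-through entry Gm20547. Ugt1a6a rose by 1.93 ± 0.08 and Ugt1a7c fell by 4.15 ± 0.13, while the 9 Ugt1a entries that share exons summed to 559 to 595 CPM unselected and 652.0 to 720.1 after selection. Gm38431 fell by 4.10 ± 0.32 and gave 0.20 when summed with the genes it overlaps. Gm10053, a cytochrome c copy, gave 1.96 ± 0.19 alone and 0.88 with Cycs. Dpysl2, a cytoskeletal regulator with no overlapping entry, fell by 4.08 ± 0.21, from 9.96, 13.4 and 12.6 CPM to 0.661 to 1.38.

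Some coding genes were read almost only in one group. With at least 10 counts in each unselected library and at most 3 in each polyA library there were 5, of which 4 were the histones Hist1h4d, Hist1h4m, Hist1h4b and Hist1h3e. The fifth, Gm28635, had 38.1 to 52.9 CPM unselected and 0 after selection, at least 733-fold lower, but it overlaps Ctnnd1 and Tmx2, and the sum gave -0.34 on the log2 scale. The reverse was met by 275 genes, a count that also moves with the greater depth of the polyA libraries outside rRNA. The highest were Rsc1a1, Brms1, Gm49342 and AL731706.1, which were listed at 0 in all unselected libraries and were at least 31.3-, 18.7-, 17.7- and 15.3-fold higher after selection against a floor of 3 counts per library. Summed with the genes they overlap, the log2 ratios were -0.18, -0.17, 0.56 and 0.45. The fifth, Plac9b, rose by 2.49 ± 0.55, from at most 0.600 CPM. Among processed pseudogenes 84 of 280 rose and 27 fell, and 89 were at 0 in every unselected library, so the fitted median of 1.74 became 0.61 with those at their bound.

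Ramp rate and fragment length were covariates of the fit, estimated from the polyA libraries. With Fast against Slow ramps 35 genes were higher and 47 lower, and with Medium against Slow ramps 778 and 247. With Long against Medium fragments 3445 genes were higher and 3493 lower, and with Short against Medium fragments 61 and 237. Among ribosomal protein genes 50 of 81 were higher and 10 lower with Long fragments, and among the 35 very long messages 9 were higher and 9 lower. Because every unselected library had Medium fragments, the values with Long or Short libraries alone combine selection with fragment length.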

How the data were processed

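The values are expected counts per gene, deposited by the authors in 1 table of the whole series. The submitters' processing notes name UMI-tools 1.1.1, Salmon 1.9.0, R 4.4.0 and GRCm38, without settings. Of 51368 gene identifiers, 50896 matched the GENCODE annotation used here. Expected counts were rounded and tested with edgeR 4.0.16 (R 4.3.3, TMM, quasi-likelihood test, Benjamini-Hochberg adjustment) over 12 libraries, with selection, ramp rate and fragment length as terms and 6 residual degrees of freedom. edgeR's filterByExpr left 14083 genes. Outside rRNA the unselected libraries held 4509262 to 4788745 counts, which limits low genes. Shares of counts were compared with an exact permutation test over libraries, without ramp rate or fragment length as terms. Named genes were all tested members of the structured RNA, nuclear lncRNA, nuclear-retained and mitochondrial lists, all tested replication histones, the 2 largest called changes each way of other lists, the 5 largest among coding and lncRNA genes with at least 10 counts in each library and no overlap of groups, and the 5 highest coding genes read almost only in 1 group. Not all named by the rule are printed, and some are not reported here. Members, lists and tests were chosen with earlier results of these data known. Alternatives were DESeq2 1.42.0, other totals, filters, covariates and subsets of libraries. The edgeR step was tested on simulated data.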

Additional observations from a re-analysis of the deposited data

Results flagged for a closer look

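In 9 of 172 looked-at sets of polyA values, 1 of the 9 polyA libraries stood apart from the rest, its gap being above 0.493 of the range. Chance flags about 1 in 20 such sets. The polyA libraries differ in ramp rate and fragment length, and 7 of these 9 values came from a library with Long fragments. mt-Co2 was 848 CPM in the Slow ramp, Long library and 311 to 547 in the others. H3f3a was 93.3 CPM in the same library and 70.5 to 80.9 in the others, and Hist1h4b 0.0830 against 0 to 0.0247. In the Medium ramp, Long library Psmb6 was 78.6 CPM against 67.7 to 73.0, Rpph1 0.428 against 0.147 to 0.277, and Rmrp 0.257 against 0 to 0.110. AC113485.1 was 0.123 CPM in the Fast ramp, Long library and at most 0.0301 elsewhere. Rn7s6 was 0.149 CPM in the Medium ramp, Short library and at most 0.0214 elsewhere, and Scarna10 0.0177 in the Fast ramp, Short library and 0 elsewhere. The low values rest on few counts.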

How the results depend on the processing

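The count of changed genes was 6665 to 6774 when single unselected libraries were left out. It was 631 (74 higher, 557 lower) for a change of at least 2-fold, 13809 (13687 higher, 122 lower) with deposited totals, 9325 (7843 higher, 1482 lower) with totals outside rRNA, and 7289 (3081 higher, 4208 lower) with totals outside rRNA and Lars2, the last chosen after seeing the data, as were the level and GC splits and the summed entries. The length difference of 1.71 was 1.37 by summed exon length and 1.41 by median transcript length. As a share of all counts, polyA minus unselected in percentage points, histones (0.00753), lncRNA types (0.257), 2000 to 4000 base genes (27.4) and genes over 8000 bases (2.34) reversed, and mitochondrial mRNA (2.99) passed the test, as it did without Short libraries (1.08). Without rRNA and Lars2 in the total, mitochondrial mRNA (-0.953), 2000 to 4000 (5.21) and 4000 to 8000 base genes (-3.93) reversed, and processed pseudogenes (0.0631) and genes under 500 bases (0.0515) did not pass. Per length, lncRNA types (-0.0309) did not pass. With Long libraries alone the log2 fold change reversed for Cycs (0.23), Eif5 (0.10), Hist2h2aa1 (0.10), Hmgcs1 (0.046), Mprip (-0.087), Psma3 (0.44), Rpl27 (0.79), Tra2a (0.17), mt-Co1 (0.36), mt-Cytb (0.25), mt-Nd1 (0.46), mt-Nd2 (0.34) and mt-Nd4 (0.076), and with Short libraries alone for Mup18 (-0.047). Rpl27 also reversed without covariates (0.14) and averaged over them (0.010). Summed with copies or overlapping entries, Ugt1a7c (0.24), Gm38431 (0.20), Rsc1a1 (-0.18), Brms1 (-0.17), Rpl27 (0.94), Mup22 (0.65), mt-Atp6 (-0.17) and Cycs (0.88) reversed. Of the recomputed list medians 119 moved by more than their SD over the polyA libraries and 565 did not. With Long libraries alone the median was 0.34 for mitochondrial mRNAs, 0.18 for lincRNA and 0.10 for all lncRNA types, each with the other sign, 0.47 for processed pseudogenes, 1.41 for major urinary proteins, 0.19 for nuclear-retained messages, 0.04 for bile duct, 0.52 for blood and -0.35 for hepatocyte transcription factors. Thinned to equal totals outside rRNA, Lars2 included, it was -1.47 for replication histones (9 of 18 tested) and -1.04 for sense intronic entries (7 of 41). Medians of immediate early genes ranged from -0.15 to 0.01. Beyond what the changed denominators, libraries and entries set by construction, the cause was not tested. No paired analysis was possible because the polyA libraries carry no replicate numbers shared with the unselected ones.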
